A study of Mus musculus with 35 samples.

Results

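The 10 genes described here are antioxidant genes of the NRF2 pathway, leaving aside the glutathione transferases. They are Nqo1, Gclc, Gclm, Txnrd1, Srxn1, Gsr, Osgin1 and Slc7a11, which are targets of NRF2, together with Nfe2l2, which encodes NRF2 itself, and Keap1, which encodes its inhibitor. A gene was taken as measured where a probe set of the array was annotated with that gene alone. On that rule 9 of the 10 genes were measured, by 15 of the 45037 probe sets tested, among 17097 genes named alone on the array. Keap1 was not analysed here, because none of the probe sets used named it alone. Where a gene had several probe sets, the one with the highest mean over the 35 arrays stood for the gene, and the others are described beside it.

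The livers came from adult male wild-type C57Bl/6 mice bought from Taconic, a common inbred laboratory strain. Each mouse sat alone in a wire-mesh cage for a single 6-hour inhalation of air or of styrene vapour, the monomer of polystyrene, and was killed on the following morning under pentobarbital. The 7 groups received air alone or styrene at 1, 5, 10, 20, 40 or 120 ppm, with 5 mice a group labelled as biological replicates and 1 Affymetrix 3' IVT array per liver. Values are on a log2 scale, so that a difference of 1 is a doubling, and they describe whole liver at 1 time after 1 exposure. A level from 1 probe set cannot be set against that of another, so only differences between groups are compared.

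NRF2 is a transcription factor that KEAP1 holds in the cytoplasm and marks for degradation. Electrophiles and oxidants modify cysteines of KEAP1, NRF2 then accumulates, pairs with small MAF proteins and binds antioxidant response elements near genes that make glutathione, regenerate thiols and reduce quinones. In liver, styrene is oxidised by cytochrome P450 enzymes to styrene oxide, an electrophile that is removed partly by conjugation to glutathione. The comparison of doses with air asks how the transcripts of this antioxidant set stood the morning after the exposure.

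The upstream sequences of 5 of these genes are printed because their transcripts behaved differently with dose, as described afterwards: Nqo1 and Osgin1 moved in opposite directions, while the main probe sets of Gclm, Txnrd1 and Nfe2l2 were not called. RefSeq's table for assembly GRCm38.p6 held promoter windows for 8 of the 10 genes, 10 windows in all, reaching from 250 bases before to 50 bases after each gene start. Each window was searched on both strands for TGACNNNGC, the core of the antioxidant response element, whose first letters an AP-1 site can share. The motif occurred in 12.4% of all 32851 windows in the table. Capitals mark the match in the lines that follow, which run 5′ to 3′ on the gene's own strand and end 1 base before the gene start.
Nqo1, chr8:107403206-107403455, minus strand: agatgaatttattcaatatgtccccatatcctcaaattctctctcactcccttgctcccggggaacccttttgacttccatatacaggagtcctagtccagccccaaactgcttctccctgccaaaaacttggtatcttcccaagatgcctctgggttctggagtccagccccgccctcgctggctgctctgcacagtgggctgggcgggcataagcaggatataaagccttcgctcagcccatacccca
Osgin1, chr8:119436897-119437146, plus strand: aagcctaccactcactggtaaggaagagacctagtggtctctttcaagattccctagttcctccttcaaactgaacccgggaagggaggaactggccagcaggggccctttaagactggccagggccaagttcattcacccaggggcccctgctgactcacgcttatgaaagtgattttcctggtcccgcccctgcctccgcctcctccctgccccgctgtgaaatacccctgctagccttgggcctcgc
Gclm, chr3:122245307-122245556, plus strand: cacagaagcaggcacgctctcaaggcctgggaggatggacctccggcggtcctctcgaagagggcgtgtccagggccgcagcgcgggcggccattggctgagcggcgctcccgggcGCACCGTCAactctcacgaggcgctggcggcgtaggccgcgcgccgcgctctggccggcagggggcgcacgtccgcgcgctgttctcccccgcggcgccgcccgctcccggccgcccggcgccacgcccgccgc
Txnrd1, 1 of its 3 listed starts, chr10:82858956-82859205, plus strand: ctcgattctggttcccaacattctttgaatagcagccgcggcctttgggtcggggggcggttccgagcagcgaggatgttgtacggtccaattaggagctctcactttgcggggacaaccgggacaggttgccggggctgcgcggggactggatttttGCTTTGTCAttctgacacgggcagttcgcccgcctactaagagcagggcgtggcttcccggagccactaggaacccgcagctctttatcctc
Nfe2l2, chr2:75704664-75704913, minus strand: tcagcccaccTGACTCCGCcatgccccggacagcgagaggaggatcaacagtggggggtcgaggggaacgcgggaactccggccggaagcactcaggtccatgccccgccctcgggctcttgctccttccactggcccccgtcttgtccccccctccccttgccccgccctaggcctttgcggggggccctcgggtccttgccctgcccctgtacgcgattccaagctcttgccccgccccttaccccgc

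The match in Gclm began 134 bases before the gene start on the opposite strand, that in Txnrd1 began 92 bases before it on the opposite strand, and that in Nfe2l2 began 240 bases before it on the gene's strand. Srxn1, whose main probe set was called lower at 120 ppm, had a match on the opposite strand beginning 28 bases after its start. The windows of Nqo1, Osgin1, Slc7a11 and Keap1 and the other starts of Txnrd1 held no match, which says only that these letters are not in these windows. The main probe set of Slc7a11 was not called at any dose, at values near or under the array median. Gclc and Gsr, which were called, had no window in the table. Whether a match divides called from uncalled genes therefore cannot be read from these windows. CACGTG, the E-box hexamer, was searched the same way and was in none of the windows of these genes, against 7.15% of all windows. A match of letters is a description of the sequence. The printed windows were picked for how the transcripts behaved, and whether a match goes with a transcript value was not tested.

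At 1, 5 and 10 ppm none of the 9 genes differed from air in limma's moderated test, with Benjamini-Hochberg adjustment over all 45037 probe sets and calls at an adjusted p under 0.05. At an unadjusted p under 0.05 there was 1 gene at 1 ppm and 0 genes at 5 and 10 ppm. Of all 17097 genes, 887 at 1 ppm, 999 at 5 ppm and 1011 at 10 ppm were under that unadjusted level. Over all 17097 genes 0% were called at 1 ppm and at 10 ppm, and 0.0526% at 5 ppm. At 20 ppm 1 of the 9 genes was called, Gsr, which was lower, where 1.46% of all genes were called and 0.959% were called lower. At 40 ppm 4 of the 9 were called: Nqo1 rose and Gclc, Gsr and Osgin1 fell. There 15% of all genes were called, 8.74% higher and 6.24% lower. At 120 ppm 4 of the 9 were called, and Gclc, Gsr, Osgin1 and Srxn1 all fell, where 19.2% of all genes were called, 11.2% higher and 7.99% lower. The median difference of the 9 genes at 120 ppm was -0.14, beside 0.04 over all genes. Every comparison with air used the same 5 air mice, so the doses are not independent of each other.

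**Figure D1:**
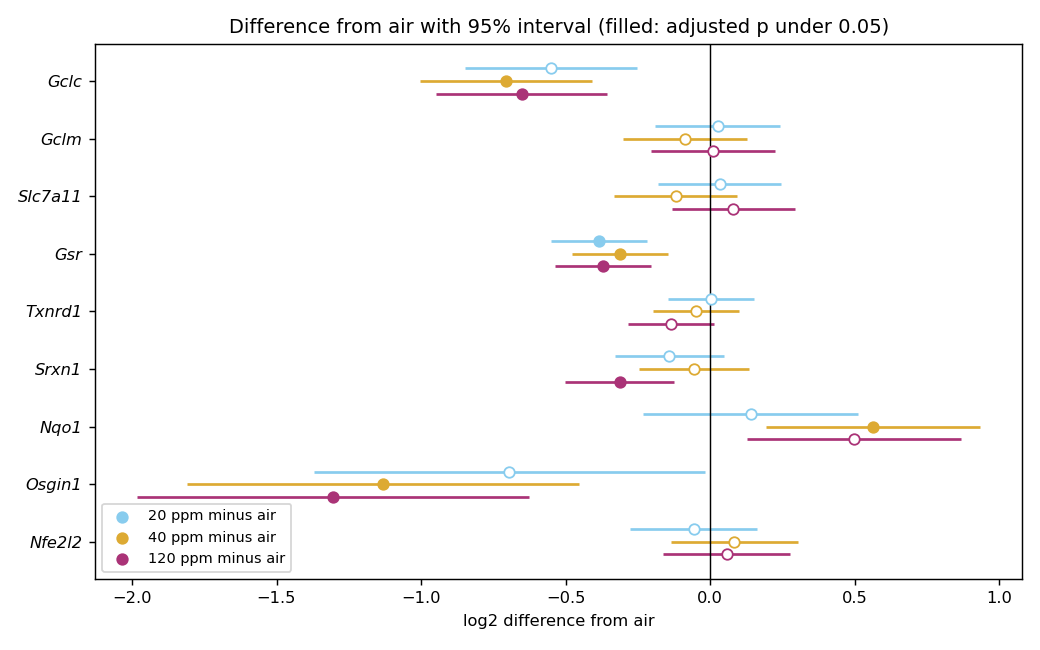
Difference of each gene's group mean from the air mean (horizontal axis, log2; main probe set) at 20, 40 and 120 ppm, with its 95% interval from the limma fit over 35 arrays; filled points had an adjusted p under 0.05. Gclc, Gsr and Osgin1 lie to the left of 0 at each of these doses, and Nqo1 lies to the right. Gclm, Slc7a11, Txnrd1 and Nfe2l2 have intervals that cross 0 at each of them. The intervals of Nqo1 at 20 ppm and of Srxn1 at 20 and 40 ppm also cross 0.

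Glutathione is made by glutamate-cysteine ligase, the rate-limiting enzyme of its synthesis, which consists of a catalytic subunit, encoded by Gclc, and a modifier subunit, encoded by Gclm. The Gclc transcript fell and the Gclm transcript did not pass the test at any dose. In the 5 air livers the log2 value of Gclc (probe set 1424296_PM_at) was 10.60, 10.74, 10.77, 10.91 and 11.12. At 40 ppm it was 9.89, 10.09, 10.11, 10.12 and 10.40, and at 120 ppm 9.81, 9.82, 10.28, 10.41 and 10.57. All 10 of these livers lay below the lowest air liver. The 15 livers exposed to 1, 5 or 10 ppm ranged from 10.47 to 11.13 and overlapped the air group at each dose. At 20 ppm the values were 9.88, 10.05, 10.28, 10.50 and 10.68, with 4 of 5 below the air range.

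The mean of Gclc fell by 0.71 (SE 0.15, n = 5 a group) on the log2 scale at 40 ppm, which is 38.7% lower than air (adjusted p = 0.00153), and by 0.65 (SE 0.15) at 120 ppm, which is 36.4% lower (adjusted p = 0.00232). The difference of -0.55 (SE 0.15) at 20 ppm missed the threshold (adjusted p = 0.0546). It passed under 7 of the 11 alternative settings, with adjusted p-values from 0.0192 with array weights to 0.0488 with an intensity-dependent prior. It also passed without air replicate 5 (0.0462), without 20 ppm replicate 1 (0.0403) and without 20 ppm replicate 3 (-0.65, 0.011). The calls at 40 and 120 ppm were kept without any 1 replicate of the groups compared, and no further drop appeared between 40 and 120 ppm.

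Gclm (probe set 1418627_PM_at) had log2 values of 10.39, 10.52, 10.59, 10.64 and 10.65 in air and of 10.33, 10.40, 10.61, 10.66 and 10.84 at 120 ppm. The groups overlapped throughout, and over all 35 livers the gene stayed between 10.21 and 10.84. The difference from air at 120 ppm was 0.01 with a 95% interval from -0.21 to 0.23 (adjusted p = 0.959), which does not overlap the interval of Gclc at the same dose, from -0.95 to -0.36. At 40 ppm the difference was -0.09 (interval -0.30 to 0.13; adjusted p = 0.623).

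Slc7a11 encodes the light chain of the cystine-glutamate antiporter, which brings in cystine as a source of cysteine for glutathione. Its main probe set (1420413_PM_at) gave 3.08, 3.10, 3.21, 3.22 and 3.56 in air and 3.14, 3.22, 3.37, 3.42 and 3.42 at 120 ppm. These values lie near or under the median probe set of the arrays, where noise limits what a probe set can show. The difference at 120 ppm was 0.08 (SE 0.10; adjusted p = 0.627), and the second probe set (1443536_PM_at), with a mean of 2.37 in air and 2.32 at 120 ppm, was not called at 20, 40 or 120 ppm either. No change in this transporter was detectable at these signal levels.

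Gsr encodes glutathione reductase, which returns oxidised glutathione to its reduced form with NADPH. Among these genes it was called at the lowest dose, and both of its probe sets fell at 20, 40 and 120 ppm. The main probe set (1421817_PM_at) had log2 values of 8.90, 8.91, 9.03, 9.07 and 9.09 in air. At 20 ppm the livers read 8.35, 8.56, 8.67, 8.74 and 8.77. Those at 40 ppm read 8.62, 8.67, 8.70, 8.70 and 8.76, and those at 120 ppm read 8.50, 8.63, 8.64, 8.66 and 8.72. Every one of these 15 livers lay below the lowest air liver. At 1 ppm the 5 livers (up to 8.898) also lay just below the lowest air liver (8.905), with an unadjusted p of 0.0227 that did not survive adjustment, while at 5 and 10 ppm the groups overlapped air.

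Gsr fell by 0.38 (SE 0.08) at 20 ppm (23.4% lower; adjusted p = 0.0163), by 0.31 (SE 0.08) at 40 ppm (19.4% lower; adjusted p = 0.00985) and by 0.37 (SE 0.08) at 120 ppm (22.7% lower; adjusted p = 0.00201), each with n = 5 a group. The calls at 40 and 120 ppm held without any 1 replicate. The call at 20 ppm was lost in a fit of only the air and 20 ppm groups (adjusted p = 0.151) and without air replicate 3 (0.0534), 20 ppm replicate 4 (0.0613) or 20 ppm replicate 5 (-0.32, 0.0654). The other Gsr probe set (1421816_PM_at) fell by 0.36 at 20 ppm (adjusted p = 0.0359), by 0.42 at 40 ppm (0.0018) and by 0.38 at 120 ppm (0.00279).

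**Figure D2:**
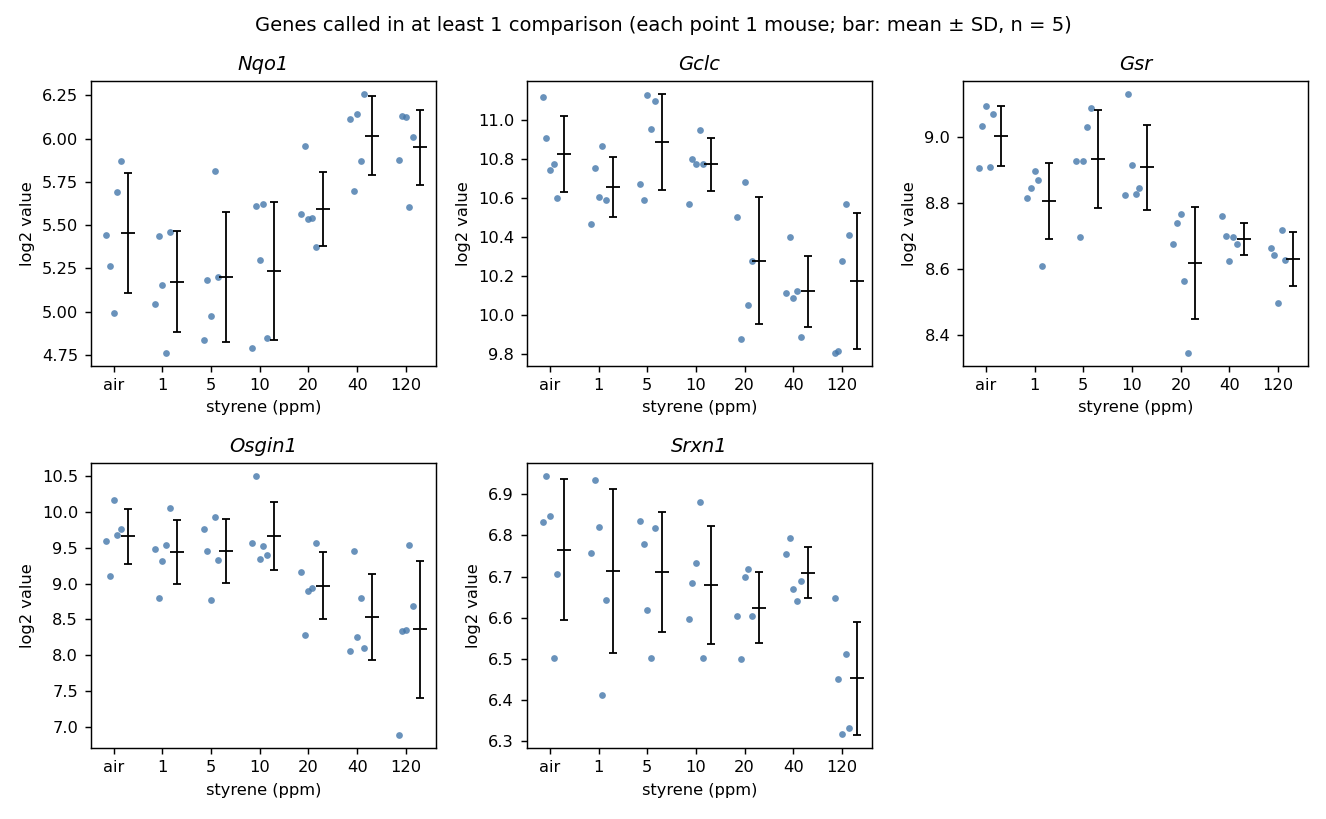
Log2 value (vertical axis) of the main probe set of the 5 genes called in at least 1 comparison, by styrene concentration in ppm; each point is 1 mouse, and the bar beside the points is the mean ± SD of 5 mice. The Gclc and Gsr livers at 40 and 120 ppm all lie below their air livers, Osgin1 spreads most widely at 120 ppm, and Nqo1 is higher at 40 and 120 ppm than at 1 to 10 ppm.

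Txnrd1 encodes the cytosolic thioredoxin reductase, which keeps thioredoxin reduced. Its probe set (1421529_PM_a_at) gave 8.78, 8.92, 8.95, 9.09 and 9.11 in air and 8.71, 8.83, 8.86, 8.87 and 8.89 at 120 ppm. The 120 ppm livers sat in the lower part of the air range, with 1 of them below it. The difference of -0.14 (SE 0.07; 95% interval -0.29 to 0.01) was not called (adjusted p = 0.186), and it passed where each array was centred on its own median (-0.23, adjusted p = 0.0315). At 20 and 40 ppm the differences were 0.00 and -0.05, both within the spread of the groups.

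Srxn1 encodes sulfiredoxin, which repairs peroxiredoxins that have been over-oxidised, and its probe sets did not give 1 answer. The main probe set (1426875_PM_s_at) gave 6.50, 6.71, 6.83, 6.85 and 6.94 in air, and 6.32, 6.33, 6.45, 6.51 and 6.65 at 120 ppm. At 120 ppm 3 of the 5 livers lay below the air range and 2 inside it, while the 40 ppm livers, from 6.64 to 6.79, all lay inside it. The mean fell by 0.31 (SE 0.09) at 120 ppm, or 19.5% (adjusted p = 0.0177). At that dose the other 3 probe sets of Srxn1 differed from air by -0.13 (1451680_PM_at), -0.05 (1425351_PM_at) and 0.24 (1419942_PM_at), with adjusted p-values of 0.483, 0.791 and 0.103. The mean of the 4 probe sets differed by -0.06 (adjusted p = 0.53), so the drop rests on 1 probe set. It was also lost without air replicate 2 (-0.27, adjusted p = 0.0575) or without 120 ppm replicate 3 (-0.28, 0.0501).

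**Figure D3:**
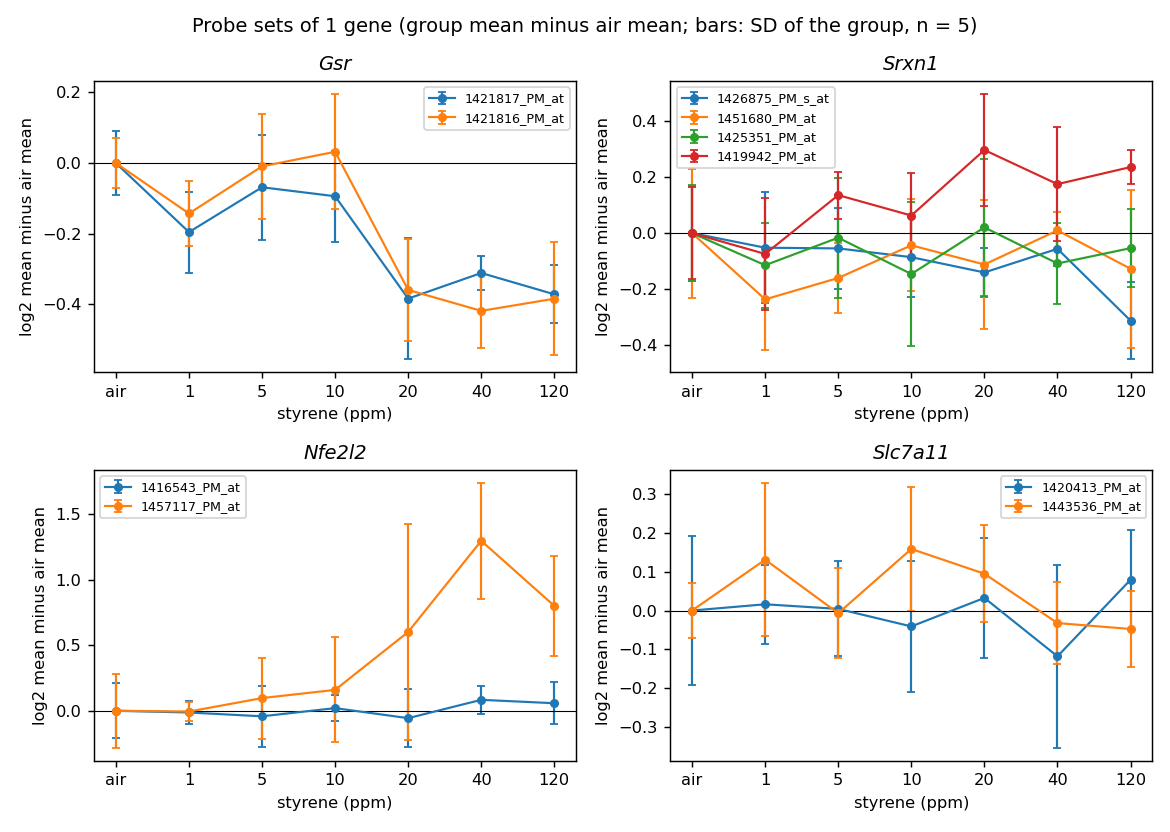
Group mean minus air mean (vertical axis, log2) by styrene concentration in ppm for each probe set of the 4 genes that had several; bars are the SD of the group, n = 5. The 2 Gsr probe sets lie together from 20 ppm upward, the 4 Srxn1 probe sets separate, and the second Nfe2l2 probe set (1457117_PM_at) rises at 40 and 120 ppm while the main one does not.

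Nqo1 encodes NAD(P)H quinone dehydrogenase, which reduces quinones to hydroquinones and is among the most used readouts of NRF2 activity. It was the only one of the 9 genes whose main probe set was called higher. The probe set (1423627_PM_at) gave log2 values of 4.99, 5.27, 5.45, 5.69 and 5.87 in air. The livers exposed to 1, 5 and 10 ppm ranged from 4.76 to 5.82, with group means of 5.17, 5.20 and 5.23 under the air mean of 5.45. At 20 ppm the values were 5.37, 5.53, 5.54, 5.56 and 5.96, at 40 ppm 5.70, 5.87, 6.11, 6.14 and 6.26, and at 120 ppm 5.61, 5.88, 6.01, 6.13 and 6.13. Above the highest air liver lay 3 of 5 livers at 40 ppm and 4 of 5 at 120 ppm, so both groups overlapped air.

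Against air, Nqo1 rose by 0.56 (SE 0.18) at 40 ppm, a fold of 1.48 (adjusted p = 0.0337). The difference at 120 ppm was of like size, 0.50 (SE 0.18; 95% interval 0.13 to 0.87), and missed the threshold (adjusted p = 0.0516). The call at 40 ppm was lost when arrays were centred on their medians (0.49, adjusted p = 0.067) or quantile normalised a second time (0.41, 0.121). It was also lost without air replicate 1 (0.0546), 2 (0.0783) or 3 (0.45, 0.122) and without 40 ppm replicate 1 (0.0677), 3 (0.0715) or 5 (0.0889). The difference at 120 ppm passed under 6 of the 11 alternative settings (adjusted p from 0.035 to 0.0496) and without air replicate 4 (0.0464), air replicate 5 (0.60, 0.0249) or 120 ppm replicate 4 (0.0355).

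Osgin1 encodes oxidative stress induced growth inhibitor 1, a protein described as slowing proliferation and promoting cell death under oxidative stress. Among the main probe sets of the 9 genes it had the largest difference from air at 20, 40 and 120 ppm, and the widest spread between livers in each group. The probe set (1424022_PM_at) gave 9.11, 9.59, 9.68, 9.77 and 10.18 in air, 8.05, 8.10, 8.25, 8.79 and 9.46 at 40 ppm, and 6.88, 8.34, 8.36, 8.69 and 9.54 at 120 ppm. In each of the exposed groups 4 of 5 livers lay below the air range and the fifth lay inside it. The SD was 0.38 in air, 0.60 at 40 ppm and 0.96 at 120 ppm.

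Osgin1 fell by 1.13 (SE 0.33) at 40 ppm, which is 54.4% lower (adjusted p = 0.0203), and by 1.30 (SE 0.33) at 120 ppm, which is 59.5% lower (adjusted p = 0.00641). At 20 ppm the livers read 8.28, 8.90, 8.94, 9.16 and 9.57, and the difference of -0.69 was not called (adjusted p = 0.393). The 40 ppm call was lost without air replicate 3 (adjusted p = 0.0641), 40 ppm replicate 1 (-1.01, 0.0571) or 40 ppm replicate 5 (-1.03, 0.0575). The 120 ppm call was kept without any 1 replicate, and the difference then ran from -1.60 to -0.94.

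Nfe2l2 itself gave different answers from its 2 probe sets. The main one (1416543_PM_at) gave 8.12, 8.32, 8.39, 8.43 and 8.70 in air, ranged from 8.34 to 8.59 at 40 ppm, and ranged from 8.30 to 8.72 at 120 ppm. These ranges overlapped, and the differences of 0.08 and 0.06 (SE 0.11 each) were not called (adjusted p = 0.646 and 0.744). The second probe set (1457117_PM_at), chosen for this description after its values were seen, was near the array median in air. It ranged from 3.38 to 3.95 in air, from 3.53 to 5.46 at 20 ppm, from 4.38 to 5.57 at 40 ppm and from 3.99 to 5.04 at 120 ppm. All 10 livers at 40 and 120 ppm lay above the highest air liver on this probe set.

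On that second probe set the rise was 1.30 (SE 0.26; adjusted p = 0.00112) at 40 ppm and 0.80 (SE 0.26; adjusted p = 0.0278) at 120 ppm. The call at 40 ppm was kept without any 1 replicate. The call at 120 ppm was lost with centred arrays (0.71, adjusted p = 0.0534), with a second quantile normalisation (0.66, 0.0797), and without air replicate 3 (0.0746), air replicate 5 (0.064), 120 ppm replicate 1 (0.66, 0.0869) or 120 ppm replicate 3 (0.0524). What part of the Nfe2l2 transcript each probe set reads was not determined here.

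**Figure D4:**
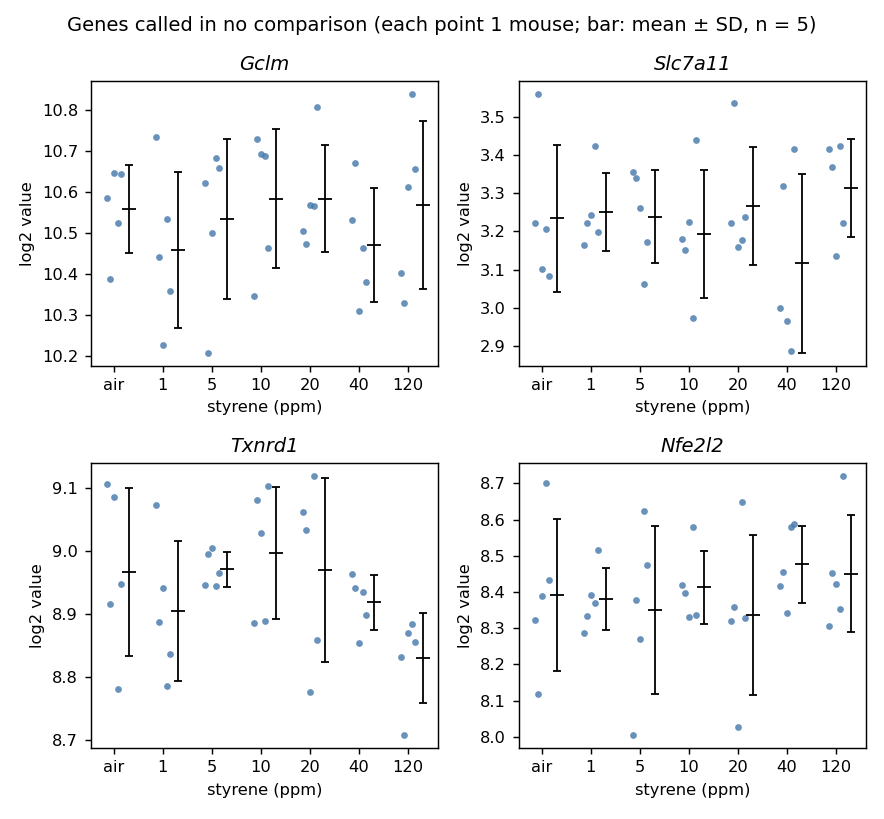
Log2 value (vertical axis) of the main probe set of the 4 genes called in none of the tests, by styrene concentration in ppm; each point is 1 mouse, and the bar is the mean ± SD of 5 mice. The groups of Gclm, Slc7a11, Txnrd1 and Nfe2l2 overlap air at every dose.

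Because every comparison with air rests on the same 5 mice, the 10 livers at 40 and 120 ppm were also set against the 15 livers at 1, 5 and 10 ppm, with no air mouse in the contrast. Here 4 of the 9 genes were called, where 37.8% of all genes were called, 23.9% higher and 13.9% lower. Nqo1 rose by 0.78 (SE 0.12; a fold of 1.72; adjusted p = 6.57e-06). Gclc fell by 0.62 (SE 0.09; adjusted p = 6.57e-06), Osgin1 by 1.08 (SE 0.21; adjusted p = 0.000246) and Gsr by 0.22 (SE 0.05; adjusted p = 0.00146). These 4 calls held under all 11 alternative settings and without any 1 of the 25 replicates. Srxn1 differed by -0.12 (adjusted p = 0.116), and passed with centred arrays (0.0176), with a second quantile normalisation (0.0227), with array weights (0.0477) and without 1 ppm replicate 4 (0.0467). Txnrd1 differed by -0.08 (adjusted p = 0.166), and passed with centred arrays (0.0175). Gclm (-0.01), Slc7a11 (-0.01) and Nfe2l2 (0.08) were not called, and the second Nfe2l2 probe set rose by 0.97 (SE 0.17; adjusted p = 4.37e-05).

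Across all 7 groups the moderated F test called the same 4 genes, where 21.5% of all genes were called: Gclc (adjusted p = 0.000115), Nqo1 (0.000961), Gsr (0.00123) and Osgin1 (0.00702). A straight line on log2(ppm + 1) called 5 of the 9, 1 upward and 4 downward, where 33% of all genes were called, 20.1% upward and 12.9% downward. Per doubling of (ppm + 1), Nqo1 rose by 0.11, and Osgin1 fell by 0.19, Gclc by 0.11, Gsr by 0.05 and Srxn1 by 0.03 (adjusted p = 0.019 for Srxn1). Between neighbouring high doses none of the 9 was called at 40 against 20 ppm, where 0.339% of all genes were called, or at 120 against 40 ppm, where 0.0409% were. In each of these comparisons limma gave 1 of the 9 genes at an unadjusted p under 0.05. Of all 17097 genes, 2116 at 40 against 20 ppm and 875 at 120 against 40 ppm were under that unadjusted level. Among the 9 genes, those under it by limma were Nqo1, higher by 0.42 at 40 than at 20 ppm (adjusted p = 0.293), and Srxn1, with a difference of -0.26 at 120 against 40 ppm (adjusted p = 0.742).

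Other genes of the pathway were taken from 3 lists, and the shares over all genes are given beside their counts. Of 26 further NRF2 targets 22 were measured. At 20 ppm 4 of them fell (Pgd, Tkt, Me1 and Blvra) and 0 rose. At 40 ppm 3 rose and 5 fell, and at 120 ppm 3 rose and 7 fell, with a median difference of -0.14. Over all genes 0.497% were called higher and 0.959% lower at 20 ppm. The shares were 8.74% and 6.24% at 40 ppm, and 11.2% and 7.99% at 120 ppm. The 3 that rose at both doses were Abcc2, Abcc3 and Abcc4, which export drugs and organic anion conjugates from the cell. At 120 ppm Abcc2 rose by 0.48 (SE 0.10; adjusted p = 0.00168), Abcc4 by 0.49 (SE 0.16; adjusted p = 0.0347) and Abcc3 by 0.50 (SE 0.18; adjusted p = 0.0445).

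Of the 7 that fell at 120 ppm, the 3 with the smallest p-values were Tkt, Taldo1 and Me1. Tkt, the transketolase of the pentose phosphate pathway, fell by 0.52 (SE 0.09; adjusted p = 0.000181) at 120 ppm, Taldo1, its transaldolase, fell by 0.54 (SE 0.10; adjusted p = 0.000426), and Me1, the cytosolic malic enzyme, fell by 0.98 (SE 0.18; adjusted p = 0.000477). Pgd, Ftl1 (a ferritin chain), Ephx1 (the microsomal epoxide hydrolase) and Aox1 (an aldehyde oxidase) were the others called lower at that dose. The list's median at 40 ppm was -0.08, beside 0.02 over all genes.

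**Figure D5:**
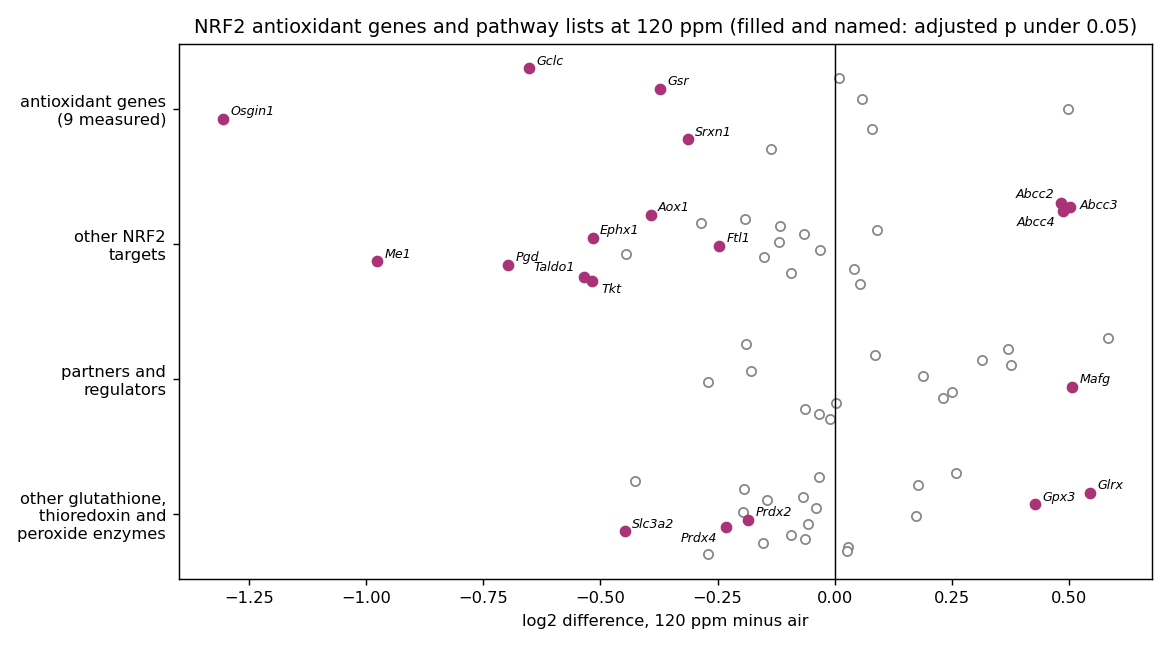
Difference from air at 120 ppm (horizontal axis, log2) for the 9 antioxidant genes and for 3 lists of other pathway genes, 1 point per gene on its main probe set; filled, named points had an adjusted p under 0.05, and height within a row only separates points. The 4 called antioxidant genes lie left of 0, and the further NRF2 targets include 3 called to the right and 7 to the left.

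Of 17 partners and regulators of NRF2 and KEAP1 16 were measured, with 0 called at 20 ppm, 2 higher at 40 ppm (Mafg and Btrc) and 1 higher at 120 ppm. Mafg, a small MAF protein that pairs with NRF2, rose by 0.51 (SE 0.13; adjusted p = 0.00583) at 120 ppm. Of 24 other genes of glutathione, thioredoxin and peroxide metabolism 22 were measured, with 0 called at 20 ppm, 1 higher and 1 lower at 40 ppm, and 2 higher and 3 lower at 120 ppm. For both lists, the shares over all genes were 8.74% higher and 6.24% lower at 40 ppm, and 11.2% and 7.99% at 120 ppm. Slc3a2, the heavy chain that carries Slc7a11 to the membrane, fell by 0.45 (SE 0.11; adjusted p = 0.00491) at 120 ppm, and Glrx, a glutaredoxin, rose by 0.55 (SE 0.16; adjusted p = 0.0142). Gpx3, the secreted glutathione peroxidase, rose by 0.43 (SE 0.15; adjusted p = 0.0489). The peroxiredoxins Prdx4 and Prdx2 fell by 0.23 (adjusted p = 0.0347) and by 0.18 (adjusted p = 0.0424).

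Several of these list calls at 120 ppm depended on the setting or on 1 library. Abcc3 lost its call with centred arrays (0.41, adjusted p = 0.101) and without any of the 10 replicates other than air replicates 4 and 5 (up to 0.128). Abcc4 lost it with centred arrays (0.39, 0.0892), with a second quantile normalisation (0.109) and without any replicate other than air replicate 5 and 120 ppm replicate 3 (up to 0.0931). Gpx3 lost it under 6 of the 11 alternative settings, and without any replicate other than air replicates 4 and 5 and 120 ppm replicate 5 (0.29 and 0.175 without air replicate 1). Prdx4 lost it in 2 settings (0.0503 and 0.112) and without air replicate 2 or 3 or 120 ppm replicate 1, 2 or 5 (up to 0.102). Prdx2 lost it in 4 settings (0.0558 to 0.153) and without any replicate other than air replicates 1 and 5 (up to 0.101). Abcc2, Tkt, Taldo1, Me1, Mafg, Glrx and Slc3a2 kept their calls without any 1 replicate.

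Over all 35 arrays, the genes whose pattern was most like each of the 4 genes of the F test were ranked by Pearson r between main probe sets, as a description across livers that share dose groups. For Nqo1 they were Cyp2c38 (0.837), Csrp3 (0.835) and Rtn4 (0.822). For Gclc they were Actb (0.876), 9530068E07Rik (0.875) and Derl2 (0.873). For Gsr they were Pop5 (0.861), Psmc4 (0.845) and Rplp0 (0.799), and for Osgin1 they were Bcl3 (0.803), AI661453 (0.800) and Ppp1r2 (0.797).

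Whether the 9 genes varied together among livers of the same dose was examined with the group means removed. Of the 36 pairs, 0 passed after adjustment over the pairs in a permutation test within groups, by Pearson's r or by Spearman's rho, with 4 and 3 pairs at an unadjusted p under 0.05. The strongest relation was between Gclm and Osgin1 (r = 0.533, rho = 0.538, permutation p = 0.0041 and 0.00243, adjusted 0.148 and 0.0875, 35 livers). Without the 2 livers farthest from the median of Gclm r was 0.605. Gclc, Gsr and Osgin1, which all fell at 40 and 120 ppm, thus gave no called pair within groups.

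Other measures differed between air and the higher doses in the same livers, and their part in these results was not tested. In whole liver, fewer cells of a type and less RNA per cell cannot be told apart. The 6 hepatocyte markers had a mean level of 13.1 to 13.5 in every liver, and 0 of 6 were called at 20, 40 or 120 ppm. Of 11 Kupffer cell markers 0 were called at 20 ppm, 4 were lower at 40 ppm and 6 were lower at 120 ppm, with a list mean of 6.97 to 7.98 in air, 6.66 to 7.11 at 40 ppm and 6.49 to 7.12 at 120 ppm. Over all genes 0.959% were called lower at 20 ppm, 6.24% at 40 ppm and 7.99% at 120 ppm. Of 3 lung genes 2 (Sftpc and Scgb1a1) were lower at 20, 40 and 120 ppm, with a list mean of 3.77 to 7.19 in the air livers and 3.97 to 4.26 at 120 ppm. The median of that list mean was 5.22 in air, 3.46, 3.76 and 3.36 at 1, 5 and 10 ppm, and 3.41, 3.84 and 4.05 at 20, 40 and 120 ppm, so it was higher in air than in every exposed group, with overlapping ranges, and did not follow the order of the doses. At 120 ppm 1 of 7 neutrophil markers (Prtn3) and 1 of 3 T and B cell markers were higher, 1 of 7 endothelial, 1 of 6 stellate and 1 of 3 pancreas markers were lower, and 0 of 4 cholangiocyte markers were called. Over all genes 11.2% were called higher and 7.99% lower at that dose. The actin control probe sets read higher at the 3' end than at the 5' end by an average of 0.478 in air, with a range of 0.436 to 0.552. The average was 0.529, 0.525 and 0.581 at 1, 5 and 10 ppm, and 0.724, 0.706 and 0.717 at 20, 40 and 120 ppm. Every liver at 20, 40 and 120 ppm lay above the air range, the lowest at 0.600. The array median averaged 3.504 in air and 3.599 at 120 ppm. Centring the arrays turned the split of called genes at 120 ppm from 1917 higher and 1366 lower to 973 higher and 2518 lower. At 40 ppm it turned 1495 and 1066 into 926 and 1775, at 20 ppm 85 and 164 into 67 and 220, in the contrast of exposed groups 4080 and 2382 into 2611 and 3813, and for the slope 3428 and 2206 into 1959 and 3773. Centred, Gclc, Gsr and Osgin1 kept their calls at 40 ppm, and at 120 ppm 5 of the 9 genes were called, all lower. Animal numbers ran on from one dose to the next, so number and dose cannot be told apart between groups. Within groups 0 of the 9 genes followed the order of the numbers, where 3.11% of all genes did, 1.81% upward and 1.3% downward, and the nearest was Nfe2l2 (slope 0.06, unadjusted p = 0.00346, adjusted p = 0.0976).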

How the data were processed

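Liver RNA of 35 mice was hybridised to 1 array each. The deposited table held log2 values per probe set. RMA and Partek are listed in the submitters' processing notes, whose versions and roles are not given in the sources used here. Nor is the base of the logarithm, which was taken as 2 because the deposited values run from 1.74 to 14.23. The 104 control rows of 45141 were left out, and nothing was renormalised. Genes were named through the platform annotation: 28898 probe sets had 1 symbol, 551 had several and 15588 had none. Symbols were used as that annotation gives them, and RefSeq supplied only the promoter sequences.

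limma 3.58.1 in R 4.3.3 fitted a mean for each of the 7 groups over all arrays (28 residual degrees of freedom), with empirical Bayes moderation, two-sided tests and Benjamini-Hochberg adjustment over 45037 probe sets, after a test on simulated data. A straight line on log2(ppm + 1) and the order of animal numbers were fitted the same way. Correlations used 100000 permutations within groups, over 36 pairs because Keap1 was not measured. Named genes were all members, up to 3 rises and 3 falls with the smallest p per list at 120 ppm, and the 3 genes most correlated with each gene of the F test. The genes and lists were chosen with earlier results of these data known. The number of arrays limits the precision. The alternatives covered scaling, filters, probe set choice, priors, array weights, samples in the fit, blocks and left-out replicates.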

Additional observations from a re-analysis of the deposited data

Results flagged for a closer look

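Of 143 gene, probe set and dose groups examined, 3 held a liver far from the other 4 of its group by Dixon's criterion at the 95% level, where chance gives about 1 group in 20. Gclm was 10.81 in 20 ppm replicate 5, with the next liver at 10.57. Osgin1 was 10.50 in 10 ppm replicate 2, with the next at 9.57, and this array was among the 2 least correlated with the rest. Slc7a11 was 3.54 in 20 ppm replicate 2, with the next at 3.24.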

How the results depend on the processing

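Beside leaving out replicates, 11 alternatives were run, and single-gene values other than those with a replicate left out were unchanged in call and direction in 523 cases, passed newly in 21, lost the threshold in 21 and turned sign in 13. The count of called genes at 20 ppm (1 of 9) was 2 with centred arrays, the brighter probe sets, 1 probe set per gene, the mean of probe sets, the robust prior, array weights or with the 2 least correlated arrays left out, and 0 where only the air and 20 ppm arrays were fitted. Leaving out 1 replicate gave 0 to 2 genes at 20 ppm, 2 to 4 at 40 ppm (2 without air replicate 3 or 40 ppm replicate 1 or 5), 3 to 5 at 120 ppm, 4 to 5 for the exposed groups, 4 to 5 for the slope and 4 in every case for the F test. Signs turned with centred arrays for Gclm (-0.000884) and Txnrd1 (-0.024) at 20 ppm and Gclm (-0.085), Slc7a11 (-0.016) and Nfe2l2 (-0.038) at 120 ppm. With the mean of probe sets they turned for Srxn1 (0.016) and Nfe2l2 (0.27) at 20 ppm and Srxn1 at 40 ppm (0.00503) and in the exposed groups (0.036). Gclm turned at 20 ppm (-0.00174) and in the exposed groups (0.00632) with array weights, and in the exposed groups also with a second quantile normalisation (0.00985) and without the 2 least correlated arrays (0.013). With 1 replicate left out the sign turned for Gclm (-0.030 to 0.053), Txnrd1 (-0.044 to 0.051), Slc7a11 (-0.035 to 0.114) and Nfe2l2 (-0.134 to 0.021) at 20 ppm, for Gclm (-0.058 to 0.070) and Nfe2l2 (-0.011 to 0.134) at 120 ppm, and for Gclm (-0.040 to 0.024) and Slc7a11 (-0.050 to 0.017) in the exposed groups. The mean of probe sets called Nfe2l2 higher at 40 ppm (0.69, adjusted p = 0.00213), at 120 ppm (0.43, 0.04) and in the exposed groups (0.52). The cause of these changes was not tested, except that the mean of probe sets by its construction brings in the second Nfe2l2 probe set. Whether replicate numbers pair the samples was described and not tested. Same-numbered arrays of different groups had residual correlations from -0.39 to 0.37 (median 0.03, 31 of 105 above 0.1). The median was -0.01 for differently numbered arrays of different groups, and 8 of 35 arrays correlated best with their own number. With the replicate number as a block the counts were 1 at 20 ppm, 4 at 40 ppm, 4 at 120 ppm, 4 for the exposed groups and 5 for the slope, as without it, and of the named calls Prdx2 lost its own (adjusted p = 0.0558). Low signal limits what Slc7a11, Abcc4 and the second Nfe2l2 probe set can show. The alternatives for single genes in the exposed groups, for the named list genes and for the second Nfe2l2 and Gsr probe sets were chosen after seeing the data.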
